A study of Homo sapiens with 4 samples.

Results

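RIMKLA, SPDYA, DOK3, SCAND2P, ISM2 and ANKRD37 are 6 genes whose transcripts were strongly raised by CoCl2 in OVSAYO cells. They were chosen by name with earlier results of these data known, among them their CoCl2 ratios in NS-si cells. Their probes are all array probes whose RefSeq accession maps to 1 of these symbols. This gave 11 of the 41000 probes, and 6 of the 17721 genes with a probe. The ratio of NS-si → CoCl2 to NS-si cells that led to the choice is therefore described and supports nothing by itself. Ranked among the 20926 named probes detected well above background on each of the 4 arrays, the highest probe of each gene in that ratio stood at rank 2 for RIMKLA, 6 for SPDYA, 9 for DOK3, 10 for SCAND2P, 12 for ISM2 and 48 for ANKRD37. Other probes of the same genes stood at rank 5 for RIMKLA, 288 for DOK3, and 70 and 147 for SCAND2P. Those of SCAND2P at 70 and 147 are brighter than the one at 10.

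The RNA came from OVSAYO, a human cell line of ovarian clear cell carcinoma (CCC). Cells were transfected with a non-specific siRNA (NS-si, here the control cells) or a pool of siRNAs against the transcription factor Sp1 (Sp1-si, here the silenced cells), cultured for 40 h according to the labels (the legend of the study gives a shorter time), and left untreated or exposed to 0.5 mM CoCl2 for 4 h. Each of the 4 conditions, NS-si, Sp1-si, NS-si → CoCl2 and Sp1-si → CoCl2, was hybridised to 1 single-colour whole human genome array, so each ratio compares a pair of cultures of 1 line, has no replicate and was not tested. All 4 groups share the transfection, and only 1 pool against Sp1 was used, so effects of the pool on other transcripts cannot be told apart from those of Sp1 loss.

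CoCl2 is a hypoxia-mimicking agent. Cobalt ions interfere with the oxygen-dependent hydroxylases that mark HIF1α and HIF2α for degradation, so that HIFs accumulate in normoxia, pair with ARNT and bind hypoxia response elements (HREs), whose core reads ACGTG or GCGTG. Cobalt also provokes metal and oxidative stress responses that do not require HIFs. Sp1 is a ubiquitous factor that binds GC boxes, of which GGGCGG is the usual core. Of the 6 genes, ANKRD37 encodes a small ankyrin repeat protein and is a known HIF1 target. RIMKLA encodes a synthetase that joins N-acetylaspartate and glutamate to form N-acetylaspartylglutamate, a dipeptide best known from the brain. SPDYA encodes Speedy A (RINGO A), which binds and activates CDK1 and CDK2 without a cyclin and is best known from meiosis. DOK3 encodes a docking protein that restrains signalling in B cells and macrophages, ISM2 encodes isthmin 2, a secreted protein with a thrombospondin type 1 repeat and an AMOP domain, and SCAND2P is a transcribed pseudogene of the SCAN domain family.

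Promoter windows from 250 bases before to 50 bases after an annotated start were taken from RefSeq (GRCh38.p14), which matched 5 of the 6 genes with 7 windows. Shown is 1 window of each matched gene, the one that holds an HRE core. Every window shown thus holds a core by this choice, and the windows of SPDYA and DOK3 left out hold none. A role of the core in the response to CoCl2 was not tested. Capitals mark ACGTG and GCGTG on either strand, so that CACGT and CACGC in capitals are the cores of the other strand, and CACGTG reads as a core on both strands.
ANKRD37 (chr4:185396591-185396890, + strand): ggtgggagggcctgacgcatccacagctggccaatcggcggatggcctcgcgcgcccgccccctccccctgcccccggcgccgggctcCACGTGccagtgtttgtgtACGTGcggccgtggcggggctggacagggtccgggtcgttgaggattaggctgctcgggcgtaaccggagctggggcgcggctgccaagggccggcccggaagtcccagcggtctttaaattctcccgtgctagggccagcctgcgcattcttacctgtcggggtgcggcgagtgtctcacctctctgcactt
RIMKLA (chr1:42380542-42380841, + strand): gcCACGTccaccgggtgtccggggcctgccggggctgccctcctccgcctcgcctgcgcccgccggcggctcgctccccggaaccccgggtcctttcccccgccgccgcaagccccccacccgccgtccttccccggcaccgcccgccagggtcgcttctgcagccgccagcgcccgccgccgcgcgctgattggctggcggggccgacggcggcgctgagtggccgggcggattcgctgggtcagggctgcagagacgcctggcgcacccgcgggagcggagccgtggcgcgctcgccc
SPDYA (chr2:28810584-28810883, + strand): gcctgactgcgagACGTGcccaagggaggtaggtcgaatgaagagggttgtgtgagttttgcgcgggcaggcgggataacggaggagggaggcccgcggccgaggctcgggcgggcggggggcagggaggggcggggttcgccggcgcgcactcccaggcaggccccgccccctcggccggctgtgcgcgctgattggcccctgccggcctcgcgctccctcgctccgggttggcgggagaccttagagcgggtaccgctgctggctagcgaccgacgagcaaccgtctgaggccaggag
DOK3 (chr5:177510352-177510651, - strand): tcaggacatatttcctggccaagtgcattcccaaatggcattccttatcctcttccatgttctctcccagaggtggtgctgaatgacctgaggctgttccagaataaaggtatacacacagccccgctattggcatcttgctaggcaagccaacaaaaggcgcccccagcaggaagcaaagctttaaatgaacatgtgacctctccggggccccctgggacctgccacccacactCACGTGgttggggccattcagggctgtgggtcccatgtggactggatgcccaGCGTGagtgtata
ISM2 (chr14:77498767-77499066, - strand): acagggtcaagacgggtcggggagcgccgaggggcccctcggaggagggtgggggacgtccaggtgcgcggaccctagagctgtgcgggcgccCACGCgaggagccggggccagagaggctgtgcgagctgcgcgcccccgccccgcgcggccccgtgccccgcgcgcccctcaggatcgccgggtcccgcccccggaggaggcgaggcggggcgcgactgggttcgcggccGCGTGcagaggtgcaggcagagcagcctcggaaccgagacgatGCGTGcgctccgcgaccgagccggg

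The core was found in 5 of the 7 windows, and 48.4% of 34796 distinct RefSeq windows of the same length hold ACGTG or GCGTG. With both strands counted, 23.1% of the RefSeq windows hold 2 or more matches. The 7 windows are few and belong to genes chosen for their CoCl2 ratio, so no difference from these shares is drawn. ANKRD37 carries 3 matches of ACGTG, of which 2 are the opposite strands of 1 CACGTG that begins at -162 from the start and 1 lies at -143. The ISM2 window holds GCGTG 3 times, at -157, -18 and 25 relative to the start. For RIMKLA and SPDYA, 1 ACGTG each lies near the far end of the window, at -248 and -237. The DOK3 window shown belongs to a start downstream of the other and holds CACGTG just before that start, at -15, and a GCGTG at 37, and the window at the outermost DOK3 start and the second SPDYA window hold neither core. GGGCGG, on both strands, was present 4 times in the first SPDYA window, 2 times each for RIMKLA and ISM2, 1 time for ANKRD37 and 0 times for DOK3, and 44.9% of all windows hold it. TGANTCA, the AP-1 core, which is present in 7.73% of all windows, was found in 0 of the 7. The metal response cores TGCGCNC and TGCACNC, present in 19.9% and 12.1% of all windows, were searched on both strands as well. TGCGCNC was found for RIMKLA, SPDYA and ISM2 and TGCACNC for ISM2 alone. In ISM2 the GCGTG at 25 overlaps a TGCGCNC and the GCGTG at -18 the TGCACNC. These matches describe letters in a window and say nothing about binding.

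The arrays differed somewhat in brightness. The signal at the 75th percentile of an array ran from 977 for NS-si → CoCl2 to 1287 for Sp1-si → CoCl2. Between 33081 and 34542 of 43376 spots were well above background, as called by the scanner software, with the fewest for Sp1-si → CoCl2. The lowest signal with this call was also highest there, at 10.2, against 6.72 to 7.39 on the other arrays. All log2 ratios below are differences of log2 signals after the 75th percentile of each array was subtracted, so they differ from ratios of the printed signals. The shift of the median over all probes when the scaling was left out was 0.40 for Sp1-si → CoCl2 to NS-si → CoCl2 and 0.45 for the gap between the CoCl2 ratios, and it was smaller for the other comparisons. A probe was counted as raised or lowered at a log2 ratio of at least 1 in size with the brighter side well above background. Every probe of the 6 genes has 1 spot. The SD given with a ratio is therefore the median SD between spots among the 53 probes with 10 spots that are nearest in signal. It ran from 0.31 among the dimmest to 0.029 among the brightest of the 10-spot probes for NS-si → CoCl2 to NS-si, and does not include the spread between cultures. The targeted transcript was low in the silenced cells, where the 10-spot SP1 probe had signals of 39.2 without and 38.7 with CoCl2, against 553 and 429 in the control cells. The epithelial markers EPCAM and KRT18 and the Müllerian marker PAX8 were well above background on all 4 arrays. Of 10 blood cell markers, PTPRC, MS4A1, SPI1 and LYZ stayed below the well-above-background call throughout, whereas the other 6 passed it, and the summed signal of all 10 lay between 3396 and 5124. Also not well above background on any array were 2 of 6 stromal markers, COL3A1 and PDGFRB, and 3 of 4 endothelial markers, PECAM1, CDH5 and KDR.

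All 11 probes were raised by CoCl2 in the control cells, where 5.23% of all tested probes were raised and 4.97% lowered. In the silenced cells again 11 of 11 were raised, against 3.93% raised and 7.7% lowered among all tested probes. The former count follows from the choice of genes. The latter cannot be called free of it, since earlier results of these data were known. In RNA from a whole culture, a change in a share of the cells and a change in every cell cannot be told apart. Over the brightest probe of each gene, the median log2 CoCl2 ratio was 3.07 in control and 2.57 in silenced cells, against medians of 0.00 and -0.01 over all tested genes. The 6 genes thus kept a response to CoCl2 after Sp1 silencing, but with different sizes.

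**Figure D1:**
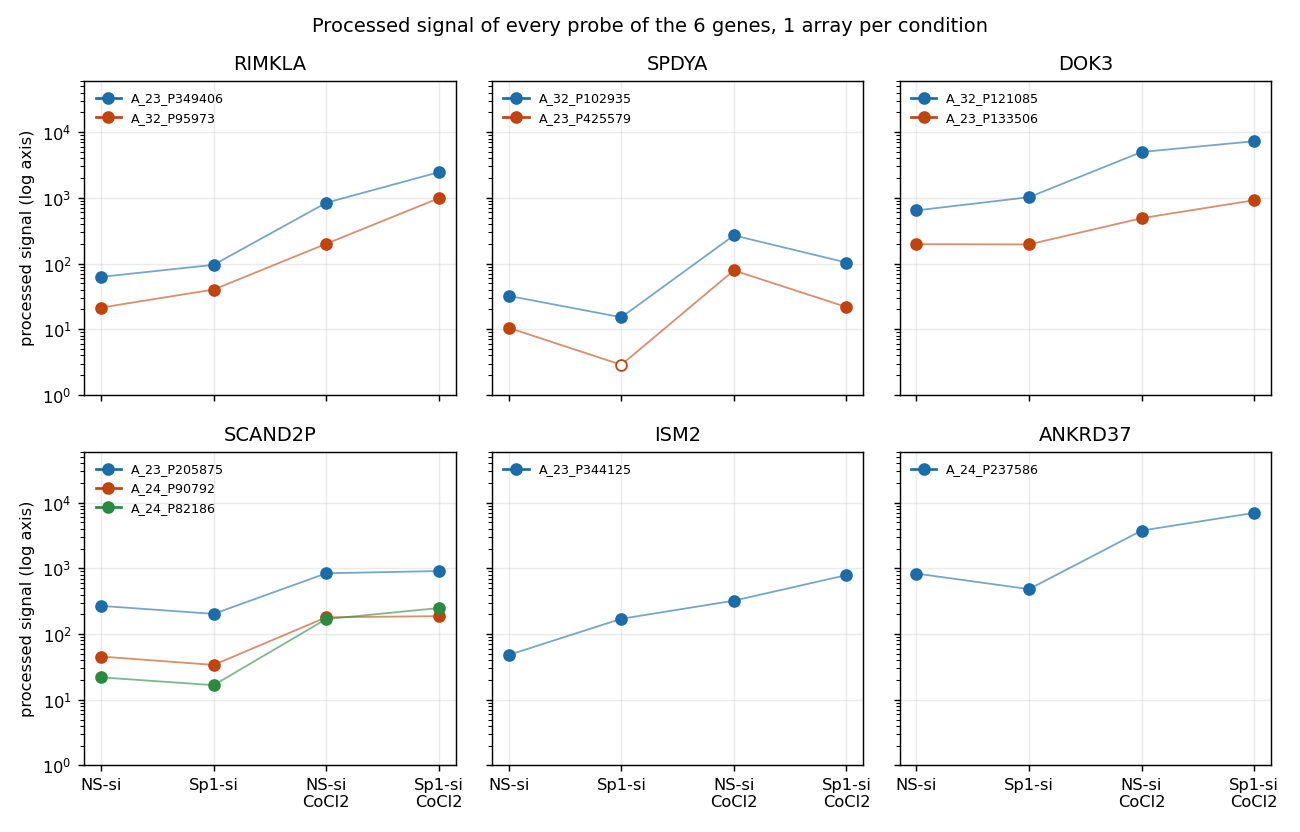
Processed signal (log axis) of every probe of the 6 genes on the 4 arrays, 1 array per condition. Filled points are well above background and the open point is not. All probes are higher on the CoCl2 arrays than on the untreated array of the same siRNA, and both SPDYA probes are lower on the Sp1-si arrays than on the NS-si arrays.

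ANKRD37 is represented by 1 probe (A_24_P237586, NM_181726), well above background on all 4 arrays. Without CoCl2 its signal was 833 in control and 483 in silenced cells, and with CoCl2 it was 3758 and 6998. Silenced cells were thus the lowest of the 4 conditions before treatment and the highest after it. CoCl2 raised ANKRD37 5.28-fold in control cells (log2 ratio 2.40, SD 0.035) and 12.4-fold in silenced cells (3.63, SD 0.031). Among named probes the latter stood at rank 9 from the top. The genes were chosen with earlier results of these data known, so this rank is described and supports nothing by itself. The log2 CoCl2 ratio was larger in silenced cells by 1.23 (SD 0.043), and of all 30234 probes well above background on all 4 arrays 1.04% had a gap of at least 1 in this direction. ANKRD37 was the only one of the 6 genes with a measured gap past this limit. Silenced relative to control cells were at a log2 ratio of -0.73 without and 0.50 with CoCl2.

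RIMKLA had the largest CoCl2 ratios of the 6 genes in both kinds of cells. The brighter of its probes (A_23_P349406) had a signal of 62.6 in control and 95.5 in silenced cells without CoCl2, and of 840 and 2453 with it. The second (A_32_P95973), for the same accession NM_173642, had 21.3 and 40.1 without and 199 and 985 with CoCl2. Both probes placed the 4 conditions in the same sequence. CoCl2 raised the brighter probe 15.7-fold in control cells (log2 ratio 3.97, SD 0.054) and 22.0-fold in silenced cells (4.46, SD 0.039). The second probe gave log2 ratios of 3.45 for control and 4.39 for silenced cells, so that the probes differed by 0.52 in the former and by 0.07 in the latter. In silenced cells they took ranks 2 and 3 among named probes. A normexp background correction, added after the data had been examined, put the first probe at 3.12 in control and 3.83 in silenced cells. RIMKLA was above its control level in silenced cells both without CoCl2, at log2 ratios of 0.66 and 0.97, and with it, at 1.15 and 1.91. It was the only one of the 6 genes that passed a log2 ratio of 1 upwards in this comparison under CoCl2, where 6.75% of all tested probes did.

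SPDYA was lower after Sp1 silencing. Its brighter probe (A_32_P102935) had a signal of 32.1 in control and 15.2 in silenced cells without CoCl2, and of 268 and 103 with it. The other probe (A_23_P425579), also for NM_001008779, had 10.5 and 2.87 without and 78.5 and 21.8 with CoCl2, and the signal of 2.87 was not well above background. Again the order of conditions was the same for both probes, with silenced below control cells before and after treatment. CoCl2 raised the brighter probe 9.75-fold in control cells (log2 ratio 3.29, SD 0.076) and 5.82-fold in silenced cells (2.54, SD 0.12). For the other probe the log2 ratio was 3.13 (SD 0.15) in control cells, and the rise in silenced cells was at least 2.77-fold. Under CoCl2, silenced relative to control cells were at -1.77 (SD 0.067) by the first and -2.25 (SD 0.13) by the second probe, and 11.3% of all tested probes were lowered in this comparison. Without CoCl2 the first probe was at -1.03 (SD 0.18), where 6.37% of all tested probes were lowered, and the second gives a bound of -0.59. The CoCl2 ratio itself was smaller in silenced cells by a log2 difference of -0.74 (SD 0.16), short of the limit of 1. The same normexp correction brought the log2 CoCl2 ratio to 2.04 in control and 0.97 in silenced cells, their gap to -1.07, past the limit, and the ratio of silenced to control cells without CoCl2 to -0.24. Quantile normalization and the authors' table put the last ratio at -0.99, just inside the limit.

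DOK3 was raised by both of its probes, by unequal amounts. The brighter probe (A_32_P121085, NM_001144875) had a signal of 644 in control and 1022 in silenced cells without CoCl2, and of 4985 and 7273 with it. A probe for another DOK3 accession (A_23_P133506, NM_024872) had 197 and 195 without and 489 and 919 with CoCl2. Before treatment, only the first probe was higher in silenced cells by more than the SD between spots. The log2 CoCl2 ratio in control cells was 3.18 (SD 0.035) by the first and 1.54 (SD 0.046) by the second probe, a gap of 1.64. In silenced cells they were at 2.60 and 2.01, which is closer. The mean of both probes was at 2.36 in control cells. As a result the probes disagreed on the effect of Sp1 silencing on the CoCl2 ratio, with a log2 difference of -0.58 by the first and 0.47 by the second. They also disagreed without CoCl2, where silenced relative to control cells were at 0.72 by the first and at 0.04 (SD 0.06) by the second. DOK3 is known from blood cells, and the 4 blood cell markers named above, PTPRC, MS4A1, SPI1 and LYZ, lacked a well-above-background call throughout, whereas others, such as CD79A and CD68, had one on every array. The summed signal of the 10 markers in control cells was 4472 without and 4318 with CoCl2, or 3.91 and 4.42 in units of the 75th percentile of the array, and most of it came from CD79A, a B cell receptor gene, at 3178 and 2994. All 4 arrays hold RNA from the cultured OVSAYO carcinoma line, and the source of these marker signals was not tested.

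ISM2 had the largest measured log2 ratio of silenced to control cells among the 6 genes without CoCl2. Its single probe (A_23_P344125, NM_199296) had a signal of 48.1 in control and 171 in silenced cells, and with CoCl2 of 322 and 790. Silencing and treatment each raised it, and the array with both was the highest. In the absence of CoCl2, silenced cells were 3.69-fold above control cells (log2 ratio 1.88, SD 0.073), rank 191 among named probes, and 6.29% of all tested probes were raised by at least 1 there. CoCl2 raised ISM2 7.83-fold in control cells (log2 ratio 2.97, SD 0.069) and 3.95-fold in silenced cells (1.98, SD 0.043). The log2 CoCl2 ratio in silenced minus that in control cells was -0.99 (SD 0.084), while 4.9% of all probes well above background on the 4 arrays had a gap of at least 1 downwards. With CoCl2 the log2 ratio of silenced to control cells was 0.90, and 1.01 with median scaling of the arrays and 1.29 without scaling. Quantile normalization put the gap between the CoCl2 ratios at -1.02, past the limit, and the added normexp correction put it at -0.34. The same correction lowered the log2 CoCl2 ratio in control cells to 2.06 and the ratio of silenced to control cells without CoCl2 to 1.12.

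SCAND2P has 3 probes, all for NR_004859 and all well above background on the 4 arrays. The one with the highest mean signal (A_23_P205875) had 268 in control and 203 in silenced cells without CoCl2, and 841 and 911 with it. A_24_P90792 had 45.4 and 33.9 without and 180 and 187 with CoCl2. A_24_P82186 had 21.9 and 16.7 without and 169 and 249 with CoCl2. All 3 were raised in both kinds of cells. The log2 CoCl2 ratios in the order of the probes above were 1.87, 2.21 and 3.17 for control cells and 1.94, 2.24 and 3.67 for silenced cells. By the first pair of probes the CoCl2 ratio differed between the siRNAs by 0.07 (SD 0.06) and 0.03 (SD 0.12), about the SD between spots or less, and by the last it differed by 0.50 (SD 0.15). Without CoCl2 the 3 probes placed silenced slightly below control cells, between -0.37 and -0.34. With CoCl2 the first was at -0.28, which turned to 0.12 without scaling between arrays, and A_24_P82186 was at 0.16.

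**Figure D2:**
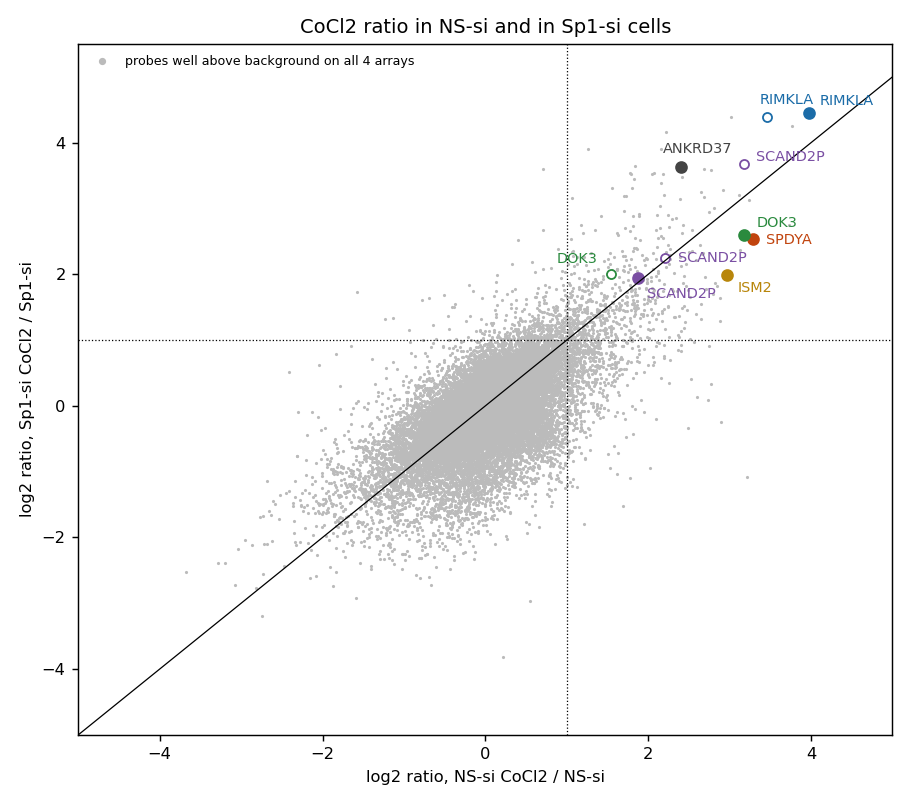
Log2 CoCl2 ratio in Sp1-si cells (vertical) against that in NS-si cells (horizontal) for the 30234 probes that were well above background on each of the 4 arrays (grey) and 10 probes of the 6 genes (coloured; filled for the brightest probe of a gene, open for others). The diagonal marks equal ratios and dotted lines a log2 ratio of 1. ANKRD37 and RIMKLA lie above the diagonal and ISM2 and SPDYA below it, and the 2 DOK3 probes lie on opposite sides.

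All probes of RIMKLA, DOK3 and SCAND2P passed the limit of 1 in both kinds of cells. For the control cells this reflects the choice of genes, and for the silenced cells it may do so as well. Among all 4977 genes with at least 2 probes well above background on every array, 305 had a probe raised in silenced cells, and for 33.1% of these every probe was raised. The ranges between probes in the CoCl2 ratio of control cells were 0.52 for RIMKLA, 1.30 for SCAND2P and 1.64 for DOK3. The median range over the 4977 genes was 0.22, and 90% of them had a range of at most 0.69. The last comparison includes genes that did not respond to CoCl2.

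**Figure D3:**
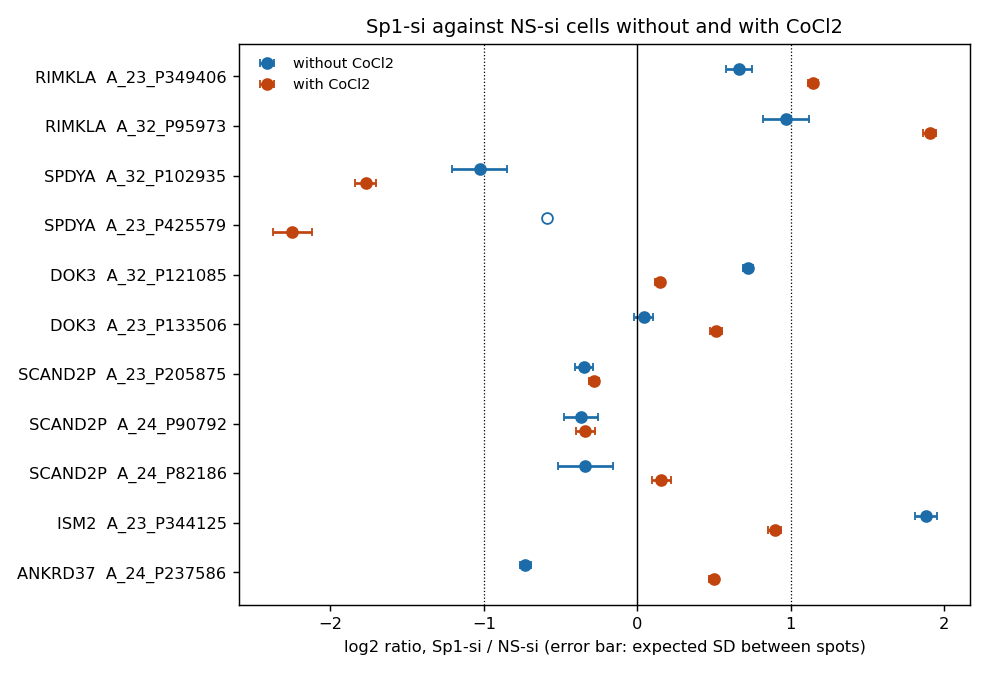
Log2 ratio of Sp1-si to NS-si cells for each probe of the 6 genes, without (blue) and with (red) CoCl2. Error bars are the expected SD between spots, the open point is a bound, and dotted lines mark a log2 ratio of 1 in size. RIMKLA, DOK3 and ISM2 lie to the right of 0 and SPDYA to the left under both conditions. ANKRD37 and the SCAND2P probe A_24_P82186 change side.

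Set beside each other, the 6 genes fell into no single pattern after Sp1 silencing. Over the brightest probes, 1 gene (ISM2) was raised and 1 (SPDYA) lowered by at least 1 without CoCl2, against 6.84% raised and 6.57% lowered among all tested genes. With CoCl2, 1 (RIMKLA) was raised and 1 (SPDYA) lowered, against 7.52% and 9.07%. The CoCl2 ratio was larger by at least 1 in silenced cells for 1 gene (ANKRD37) and smaller for 0, against 0.973% and 2.88%. When the mean log2 value of each gene over the 4 arrays was removed, the root mean square distance between a pair of the 6 genes was smallest for DOK3 and ISM2, at 0.53, and for DOK3 and ANKRD37, at 0.53, and largest for SPDYA and ISM2, at 1.41. Taking the same measure over 14277 other genes, each by its brightest probe, the nearest to ANKRD37 were TICRR at 0.22, a DNA replication initiation gene, HILPDA at 0.32, a hypoxia-inducible lipid droplet gene, and ZFAND2A at 0.33. SPDYA had DNAJB4, a heat shock co-chaperone, FERMT3 and CSRNP1 as its neighbours, at 0.30 to 0.32. Nearest to DOK3 were HMOX1 at 0.24, a heme oxygenase gene, TCAF2 at 0.27 and ATF3 at 0.32, a stress-inducible transcription factor. For ISM2 these were PIM1 at 0.15, a serine/threonine kinase, ATF3 at 0.28 and RAP2B at 0.35. SCAND2P, by its brightest probe, had close neighbours in MIR22HG at 0.03, ZNF395 at 0.05 and ETS1 at 0.06. RIMKLA had none as close, with TCAF2 at 0.58 and HMOX1 and PFKFB4 both at 0.71. These are likenesses over 4 arrays only, and each of the 6 genes entered by its brightest probe. The log2 values were not scaled to equal spread, so a distance also depends on the size of the CoCl2 ratio. That ratio was largest for RIMKLA, so its larger distances do not show that its pattern was more distinct. Probes of SCAND2P differed by 1.30 and those of DOK3 by 1.64 in the log2 CoCl2 ratio of control cells. The distances of both genes therefore hold for 1 probe, and those of their other probes were not examined.

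HRE-dependent genes were raised by CoCl2 as a group. Of 28 tested in control cells, 22 were raised and 1 lowered, with a median log2 ratio of 1.82, and in silenced cells 24 of 29 were raised and 1 lowered, with a median of 1.60. Among all tested genes, 4.73% were raised and 3.91% lowered in control cells and 3.84% raised and 4.78% lowered in silenced cells. The highest in control cells were PFKFB4 at 3.77, HMOX1 at 3.73, STC2 at 3.12 and ADM at 2.77, and the lowest was CA12 at -1.72. Of these, PFKFB4 and HMOX1 exceeded the ratio of the brighter DOK3 probe, and none exceeded that of the brighter RIMKLA probe. ANKRD37, the known HIF target of the 6, lay between ADM and VEGFA (2.34) in control cells. In silenced cells ANKRD37 at 3.63 was next to ADM at 3.58, a hypoxia-inducible peptide hormone.

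Relatives and partners of the 6 genes were counted against the shares over all tested genes. These were 4.73% raised and 3.91% lowered in control cells, and 3.84% and 4.78% in silenced cells. The lists are small and the counts are of a few genes each, so no difference from these shares is drawn from them. Of 4 measured genes of N-acetylaspartylglutamate metabolism, 0 passed the limit in either direction with CoCl2. RIMKLB, the other synthetase, had a log2 CoCl2 ratio of -0.11 in control cells, and NAT8L, which makes N-acetylaspartate, one of 0.74. The log2 ratio of silenced to control cells for NAT8L was 1.70 without and 1.75 with CoCl2. RIMKLB was on the other side, at -0.80 and -1.38, and FOLH1, which cleaves the dipeptide, was at -0.48 without CoCl2 and at least 2.19-fold lower with it. In silenced relative to control cells under CoCl2, 1 of the 4 genes was thus raised and 2 lowered, with a median of -0.96. This median lies between FOLH1 and ASPA, whose signals in silenced cells with CoCl2 were not well above background, so it is not a measured value. ASPA was at least 1.35-fold lower. Over all tested genes 7.52% were raised and 9.07% lowered in this comparison. FOLH1 was dim, with signals under CoCl2 of 23.4 in control and 14.1 in silenced cells, the latter not well above background.

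Of 11 Speedy family and cell cycle kinase genes, 0 were raised and 1, CCNE2 (-1.22), was lowered in control cells, against 4.73% and 3.91% over all tested genes. CDK1, a kinase that Speedy A can activate, had a log2 CoCl2 ratio of -0.90 in control and -1.34 in silenced cells, and CDK2, the other such kinase, one of 0.30 and 0.80. The highest in control cells were SPDYE1 at 0.80 and CDKN1B at 0.40, ahead of CDK2 and of SPDYE3 at 0.27. SPDYE genes are near-identical copies, so their probes may not separate them. By the brightest probe of each gene, SPDYA was the only Speedy gene measured here with a ratio above 1. In silenced cells 0 of 11 were raised, and CDK1 was the 1 lowered.

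Of 13 DOK adaptors and partners tested in control cells, 1 was counted as raised and 2 as lowered, against 4.73% and 3.91% over all tested genes. The raised one was DOK2, with a signal of 6.27 before treatment that was not well above background, so that its rise was at least 1.98-fold, a bound just under the limit. Lowered were DOK7 at -1.35 and BTK, at least 2.65-fold lower, since its signal under CoCl2 was not well above background. INPP5D (SHIP1), a phosphatase that DOK3 can recruit, had a log2 ratio of -0.41. In silenced cells 0 of 12 were raised and 1 was lowered, DOK5 at -1.10.

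SCAN domain genes were raised in 1 of 19 and lowered in 1 of 19 tested cases in control cells, near the 4.73% and 3.91% over all tested genes, and these were ZSCAN29 at 1.08 and SCAND1 at -1.04. In silenced cells ZSCAN29, at 1.06, was the 1 raised and 0 were lowered. The median of the list in control cells was -0.02, against 1.87 for the brightest SCAND2P probe. Among 9 tested genes with isthmin-like domains, 1 was raised, SUSD2 at 1.40, which also carries an AMOP domain and reached 1.46 in silenced cells. ISM1, the closest relative of ISM2, had a CoCl2 ratio of -0.24, and its log2 ratio of silenced to control cells was 2.18 without and 1.60 with CoCl2. Both isthmin genes thus had a higher signal in silenced cells. ISM1 was dim in control cells, with a signal of 20.3 without and 14.6 with CoCl2. In silenced relative to control cells, 6.84% of all tested genes were raised by at least 1 without CoCl2 and 7.52% with it. Of 32 other ANKRD genes 0 were raised and 1 was lowered in control cells, from ANKRD35 at -2.28 to ANKRD11 at 0.98, and in silenced cells 0 were raised and 3 lowered.

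Genes next to the 6 on the chromosome were examined in the same way, taking from RefSeq the nearest pair of genes with a probe on each side. Of these 24 neighbours, 23 were tested in control cells, of which 1 was raised and 1 lowered, with a median log2 ratio of 0.05. These counts lie near the 4.73% raised and 3.91% lowered over all tested genes. DDX41, an RNA helicase gene on the same strand as its neighbour DOK3, was the one raised. Its signal was 1911 in control and 1913 in silenced cells without CoCl2, and 4899 and 7128 with it, which gives log2 CoCl2 ratios of 1.58 and 1.67. PDLIM7 and TMED9 near them were at 0.42 and 0.33. WDR73, which overlaps SCAND2P, was the gene lowered, at -1.50 in control and -1.91 in silenced cells, opposite to SCAND2P, and its other probe gave -0.88 and -1.07. ANKRD37 overlaps LRP2BP and UFSP2 on the other strand. LRP2BP had a dim signal of 30.4 without and 51.1 with CoCl2 in control cells, a log2 ratio of 0.98, and UFSP2 was at -0.06. SPDYA overlaps TRMT61B, a tRNA methyltransferase gene on the other strand, which was at -0.65. The neighbours of RIMKLA with a measured ratio, FOXJ3 and CCDC30, were at 0.31 and 0.11. For ISM2 the neighbours lay between -0.01 and 0.40 in control cells by their brightest probes. The brightest SPTLC2 probe was at 0.21 in control and -1.24 in silenced cells, and its other probe at 0.89 and 0.87.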

How the data were processed

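Expression was measured with 4 single-colour Agilent whole human genome arrays, 1 per condition. The intensity files were deposited as written by Agilent Feature Extraction 10.5.1.1, with the background subtracted and spatial trends removed, and arrays not normalized to each other. The value table deposited by the authors holds the same intensity times 1 constant for each array, with the method of scaling not given in the sources used here. The other columns used, per the file headers, are calls for outlier spots and spots well above background.

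Signals of non-control spots were log2-transformed, the 75th percentile of each array was subtracted, outlier spots were left out, and spots of a probe were averaged. A probe was well above background when at least 50% of its spots were. With 1 dim side, the lowest signal well above background or the own signal, whichever was higher, gave a bound. RefSeq accessions (GRCh38.p14) matched 28463 of 29877 spots with such an accession. The array annotation is on hg18, so no coordinates of probes are given. For each gene, the brightest probe over the 4 arrays stood for it.

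Members, gene lists and limits were chosen with earlier results of these data known. Named are the 6 genes, SP1, the 3 genes of nearest pattern and the nearest 2 measured genes on each side of each, and up to 4 genes from each end of a list. With no replicate, no test was run. The counting was tested on simulated data. The alternatives were other scalings, the authors' table, dim signals set to a floor, outlier spots retained, probes averaged per gene, other limits and filters, and normexp with offset 50, for which median signals took the place of the planned mean signals. Python 3.11.15, numpy 2.4.6, pandas 2.3.3, matplotlib 3.10.9, R 4.3.3 and limma 3.58.1 were used.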

Additional observations from a re-analysis of the deposited data

Results flagged for a closer look

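For 2 probes, the ratio of Sp1-si to NS-si cells had opposite signs without and with CoCl2, on 1 array per condition, and this difference was not tested. For ANKRD37 (A_24_P237586) the log2 ratio was -0.73 without and 0.50 with CoCl2, a difference of 1.23. For SCAND2P (A_24_P82186) it was -0.34 (SD 0.18) without and 0.16 (SD 0.06) with CoCl2, a difference of 0.50, whereas the other SCAND2P probes were negative under both conditions.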

How the results depend on the processing

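No paired analysis was possible because each condition has 1 array. Under 9 alternatives, 270 values of the 6 genes were recomputed (the other 3 alternatives change counts only), and 2 changed sign, both of SCAND2P and both below 1 in size. The log2 CoCl2 ratio of all 6 genes was at least 1 under these 9 alternatives in both kinds of cells, except for SPDYA in Sp1-si cells under normexp. The mean of all probes put SCAND2P in Sp1-si cells at 2.62, against 1.94. The number of genes lowered in Sp1-si cells without CoCl2, 1 here, was 0 under quantile normalization, the authors' table, normexp and a limit of 1.5, and 2 at a limit of 0.5. Genes whose CoCl2 ratio was smaller after silencing by at least 1, 0 here, numbered 1 under quantile normalization (ISM2) and normexp (SPDYA), and 3 at a limit of 0.5. Without scaling, the probes raised by CoCl2 numbered 1131 in control (NS-si) and 2137 in silenced (Sp1-si) cells, against 1719 and 1286. The median log2 ratio of Sp1-si → CoCl2 to NS-si → CoCl2 shifted by 0.40 without scaling and by 0.11 with median scaling. The share of called probes that were higher moved without scaling from 51.3% to 30.6% for CoCl2 in NS-si cells, from 33.8% to 56.6% in Sp1-si cells (43.8% with median scaling), from 37.4% to 71.7% for Sp1-si to NS-si under CoCl2, and from 17.5% to 84.5% for the gap between CoCl2 ratios (28.1% with quantile normalization and 28.5% with median scaling). Normexp, an alternative added after the data had been examined, gave 693 and 585 probes raised by CoCl2 in control and silenced cells, 1694 and 2693 different between siRNAs without and with CoCl2 (against 4186 and 5886), and 820 with unequal CoCl2 ratios (against 1794). At a limit of 1.5 they were 761, 562, 1808, 2503 and 380, and at 0.5 they were 5352, 4296, 10914, 14435 and 7055. Normexp on mean signals was planned and not run. The cause of these shifts was not tested.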
